A study of Mus musculus with 4 samples.

Results

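A set of 9 genes of the primitive endoderm was followed in RNA-seq of mouse embryonic stem cells (mESCs), out of 37310 annotated genes counted. They were listed by name: the transcription factors *Gata4*, *Gata6*, *Sox7*, *Sox17* and *Foxa2*, the receptor gene *Pdgfra*, the adaptor gene *Dab2*, and the basement membrane genes *Lama1* and *Sparc*. All 9 were found in the count table by their GENCODE vM1 identifiers. The list is one of names and applies no cut to measured values, but it was drawn up with earlier results of these data known. The libraries came from the HATX line, mESCs of mixed genomic background that the study describes as haploid and that carry an *Xist* transgene which doxycycline can switch on. One group, with 2 libraries, was the wild-type (WT) line. The other, also with 2 libraries, was clone 2 of a *Spen* knockout made in the same line, described by the study as a deletion of most or all of the gene. Both lines were grown with serum and LIF on gelatin, and no treatment was stated. Each group was therefore 1 cell line, and any other difference between the clone and the WT line cannot be told apart from the loss of *Spen*.

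The primitive endoderm is the cell layer that forms beside the epiblast in the mouse blastocyst. FGF signalling and the factors Gata6, Gata4, Sox17 and Sox7 set up its fate, while Nanog holds cells in the epiblast fate from which mESCs derive. Its descendants, the visceral and the parietal endoderm, nourish the embryo and lay down basement membranes rich in laminin, collagen IV, nidogen and Sparc. Cultures of mESCs in serum are known to hold some cells that express primitive endoderm genes. In bulk RNA, fewer cells of a type and less RNA per cell cannot be told apart.

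Total counts were 36667685 to 61908422 per library, with the WT libraries the shallower. *Spen*, the targeted gene, did not have fewer gene-level counts in the knockout libraries: its normalized counts were 3716 and 3047 in WT and 7797 and 6242 in the libraries labelled KO, a log2 difference of 1.05 ± 0.21 (SE, adjusted p = 7.7e-06). A gene-level count does not show which exons the reads came from, so it does not check the label, and the group is called KO-labelled below. The defining mESC markers were present in every library. Of 8 such markers, DESeq2 and edgeR each called 0. Of all genes tested, DESeq2 called 3.15% lower and 1.36% higher, and edgeR 3.52% and 1.43%. DESeq2's unadjusted p was under 0.05 for 2 of the 8 markers, and for 28% of all genes. The summed level per length of the 8 markers was 3210 and 3110 in WT and 3530 and 3530 in KO-labelled libraries. Much of that sum was *Dppa5a*, at 1700 and 1600 in WT and 2070 and 1960 in KO-labelled libraries. Since 78.6% of the exonic sequence of *Dppa5a* and 34.9% of that of *Nanog* occurs more than once in the mm9 genome, their counts are uncertain. *Nanog* had normalized counts of 47454 and 47950 in WT and of 42237 and 49531 in KO-labelled libraries, which overlap.

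Promoter sequences in RefSeq (GRCm38.p6) were listed for 4 of the 9 genes, namely *Dab2*, *Foxa2*, *Pdgfra* and *Sparc*. Those of 3 genes are shown, because the basement membrane genes below moved in opposite directions: *Sparc*, *Nid1*, which was higher in KO-labelled libraries, and *Lamb1*, which was lower. They were chosen after their values were seen. Each is the 150 bases before the first transcribed base, 5′ to 3′ on the strand of the gene, with CG dinucleotides in capitals. *Sparc* lies on the minus strand at chr11:55420081-55420230, *Nid1* on the plus strand at chr13:13437452-13437601, and *Lamb1* on the plus strand at chr12:31265143-31265292.
Sparc: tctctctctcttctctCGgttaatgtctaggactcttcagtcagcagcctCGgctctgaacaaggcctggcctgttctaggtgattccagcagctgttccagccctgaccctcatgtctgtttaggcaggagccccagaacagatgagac
Nid1: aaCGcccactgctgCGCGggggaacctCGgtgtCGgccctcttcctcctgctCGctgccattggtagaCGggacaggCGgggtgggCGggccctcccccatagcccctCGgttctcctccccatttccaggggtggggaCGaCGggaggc
Lamb1: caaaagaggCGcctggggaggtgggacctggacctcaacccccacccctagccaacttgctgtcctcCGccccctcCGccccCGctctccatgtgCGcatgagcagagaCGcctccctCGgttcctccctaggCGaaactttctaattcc
The 300-base promoter of *Sparc*, from 250 bases before the start to 50 after it, held 4 CG dinucleotides, against 20 for *Nid1* and 18 for *Lamb1*. Over all 32851 listed promoters of that length the median was 7, with quartiles of 3 and 20. The core GATA letters GATAA, searched on both strands, were found in 2 of the 7 promoters listed for the 4 genes, 1 each of *Dab2* and *Foxa2*, and in 25.4% of all listed promoters. These matches describe letters in a window and do not show a bound site.

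KO-labelled libraries were compared with WT to ask whether primitive endoderm genes differed when Spen was lost. Expression of these genes did not move as 1 block. *Lama1* and *Sox7* were lower in KO-labelled libraries, *Gata4* was lower by a weaker call, *Sparc* was higher, and the others did not pass the test or received no adjusted p. A gene was called at a fold of at least 2 with an adjusted p under 0.001, from DESeq2's Wald test over all genes. Of the 9 genes 7 received an adjusted p. Among them 2 were called lower, where 3.15% of the 17710 genes tested were called lower, and 0 were called higher, where 1.36% of all genes were. At an adjusted p under 0.05 alone, 3 were lower and 1 was higher, against 15.8% and 16.4% of all genes tested. The unadjusted p was under 0.05 for 6 of the 9, and for 28% of the 25392 genes with a p. edgeR's quasi-likelihood test called 3 lower and 0 higher, against 3.52% and 1.43% of the 17261 genes it tested. The median log2 fold change of the 7 genes was -0.91, against 0.00 over all genes tested. The labels do not say whether the libraries of a group came from separate cultures, so p-values measure only the spread between these libraries, which may be technical.

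**Figure D1:**
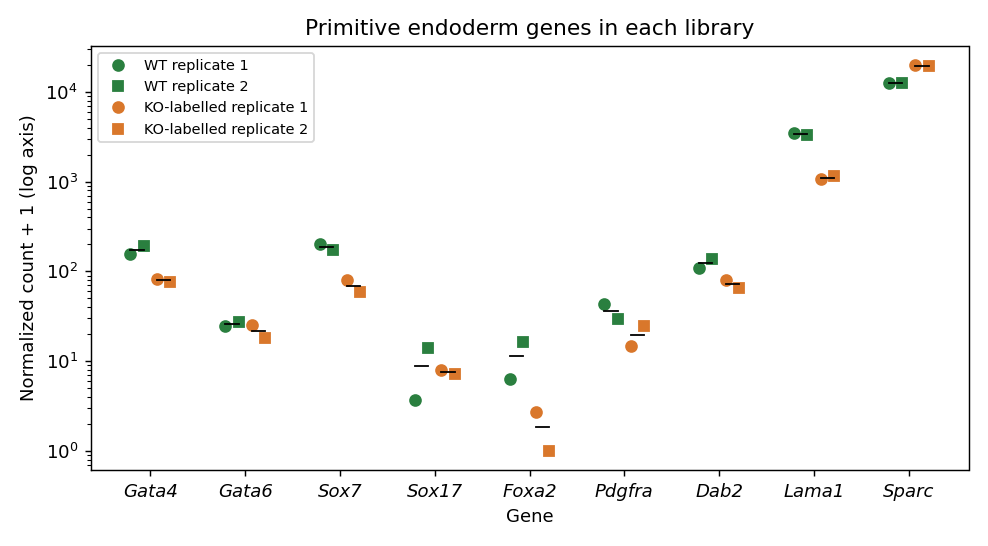
Normalized counts plus 1 of the 9 primitive endoderm genes on a log axis, with 1 point per library, circles for replicate 1 and squares for replicate 2, and a bar at each group mean. *Sparc* and *Lama1* stand far above the regulators, and the WT and KO-labelled points overlap for *Gata6* and *Sox17*.

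Among the transcription factors, *Sox7* changed most clearly. *Sox7* (ENSMUSG00000063060.5, mm9 chr14:64562511-64569569, plus strand) encodes an SRY-box factor of primitive and parietal endoderm. WT replicates 1 and 2 had 199 and 172 normalized counts of it, against 78.4 and 57.9 in the KO-labelled replicates. Both WT libraries lay above both KO-labelled libraries, with means of 185 ± 19 (SD, n = 2) and 68.1 ± 14.5 (SD, n = 2). This was a level 2.72-fold lower, or -1.45 ± 0.32 on the log2 scale (SE, adjusted p = 4.53e-05). The call was lost without any 1 library: the direction was kept, but the adjusted p then ranged from 0.00235 to 0.0366.

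*Gata4* (ENSMUSG00000021944.8, chr14:63817759-63890529, minus strand), which encodes a zinc finger factor that drives endoderm genes, lies on the same chromosome. It had normalized counts of 155 and 191 in WT and of 81.8 and 75.9 in KO-labelled libraries. The groups did not overlap, and the log2 fold change of -1.13 ± 0.31 (SE) had an adjusted p of 0.0014, just over the threshold. With edgeR the adjusted p was 0.000556, and *Gata4* was then called lower. Without WT replicate 2 the adjusted p was 0.159, and without KO-labelled replicate 2 it was 0.0666.

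*Gata6* (ENSMUSG00000005836.8, chr18:11052508-11085633, plus strand), which encodes the earliest of the endoderm GATA factors, was low in both groups. Its normalized counts were 23.9 and 26.1 in WT and 24.4 and 17.2 in KO-labelled libraries, so the groups overlapped. On the log2 scale the change was -0.27, with a 95% interval of -1.64 to 1.10 and an adjusted p of 0.827. That interval holds changes of more than 2-fold either way, among them one of the size seen for *Sox7*. An antisense lincRNA shares 1.82% of its exonic bases, and had at most 2 counts in any library.

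*Sox17* and *Foxa2* were near the limit of detection and received no adjusted p. *Sox17* (ENSMUSG00000025902.7, chr1:4481009-4486494, minus strand), an SRY-box factor gene of endoderm, had 2 and 12 raw counts in WT and 8 and 8 in KO-labelled libraries. These overlap, and the log2 fold change of -0.27 had a 95% interval of -2.78 to 2.24. Its sign turned without WT replicate 2, to 1.32. *Foxa2* (ENSMUSG00000037025.5, chr2:147868613-147872705, minus strand), a forkhead factor gene of endoderm, had 4 and 14 raw counts in WT and 2 and 0 in KO-labelled libraries. The groups did not overlap, and the depth-scaled ratio of KO-labelled to WT counts was 0.0766, with a 95% interval of 0.00862 to 0.32 that covers counting error only. DESeq2 gave *Foxa2* an unadjusted p of 0.0376, and an adjusted p of 0.142 with independent filtering off. Its log2 fold change of -3.61 moved to -6.16 without KO-labelled replicate 1, and to -2.56 without KO-labelled replicate 2, so its size rests on single libraries.

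The receptor and the adaptor did not pass the test. *Pdgfra* (ENSMUSG00000029231.9, chr5:75548316-75594229, plus strand), the receptor gene that marks primitive endoderm precursors, had normalized counts of 42.4 and 28.3 in WT and of 13.9 and 23.5 in KO-labelled libraries. All WT values were above the KO-labelled ones, but by little: on the log2 scale *Pdgfra* was at -0.91 ± 0.67 (SE), with a 95% interval of -2.22 to 0.39 and an adjusted p of 0.33. *Dab2* (ENSMUSG00000022150.9, chr15:6249788-6390712, plus strand) encodes an endocytic adaptor that endoderm cells need to sort their surfaces. Its normalized counts were 107 and 136 in WT and 79.2 and 65 in KO-labelled libraries, with no overlap. The log2 fold change of *Dab2* was -0.76 ± 0.35 (SE, adjusted p = 0.0862), and with edgeR the adjusted p was 0.0148. A second annotated *Dab2* gene model covers 18.7% of its exonic bases and had 0 counts in every library, so reads in the shared part may have been assigned to neither.

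Both basement membrane members had many counts and changed in opposite directions. *Lama1* (ENSMUSG00000032796.7, chr17:68046605-68171985, plus strand) encodes the laminin alpha chain of early embryonic basement membranes. It had normalized counts of 3450 and 3337 in WT and of 1056 and 1142 in KO-labelled libraries. The means were 3393 ± 80 (SD, n = 2) and 1099 ± 60.5 (SD, n = 2), a level 3.09-fold lower, and the log2 fold change was -1.63 ± 0.10 (SE, adjusted p = 6.8e-62). *Lama1* stayed called without any 1 library.

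*Sparc* (ENSMUSG00000018593.6, chr11:55208002-55233582, minus strand) encodes a collagen-binding matrix protein that parietal endoderm secretes in large amounts. Its normalized counts were 12582 and 12495 in WT and 19805 and 19479 in KO-labelled libraries. Libraries of a group differed far less than the groups, and the log2 fold change was 0.65 ± 0.06 (SE, adjusted p = 6.35e-22), a level 1.57-fold higher. This is under the 2-fold minimum, so *Sparc* was not called. The median log2 fold change on chromosome 11 was 0.16, and with chromosome medians removed that of *Sparc* was 0.48.

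**Figure D2:**
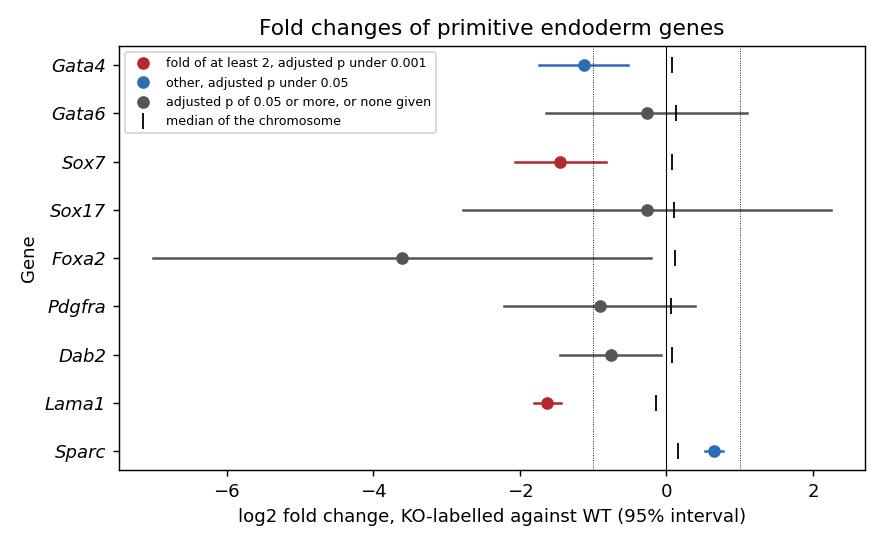
Log2 fold changes of the 9 genes, KO-labelled against WT, as points with 95% intervals, coloured by the DESeq2 call, with dotted lines at a 2-fold change and short bars at the median of each gene's chromosome. Intervals of *Sox7*, *Gata4*, *Lama1* and *Sparc* lie well away from 0, and that of *Foxa2* is the widest.

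Levels of different genes were compared per length, as counts per kilobase of exon per 1000000 counts of the library. On this scale *Sparc* was highest in both groups, at 77.3 in WT and 121 in KO-labelled libraries, followed by *Lama1* at 7.4 and 2.4. *Sox7* came next at 1.17 in WT and 0.431 in KO-labelled libraries, then *Gata4* at 0.919 and 0.42. The levels of these 2 factors did not overlap in WT and did in KO-labelled libraries. With the longest transcript as the length they overlapped in both groups, and their order in KO-labelled libraries changed, so the order of *Sox7* and *Gata4* depended on the length used. Below them, *Dab2* stood at 0.345 and 0.205 (0.543 and 0.322 with the longest transcript as the length), *Gata6* at 0.163 and 0.136, and *Pdgfra* at 0.109 and 0.0577. *Foxa2* was at 0.0904 and 0.00771 and *Sox17* at 0.052 and 0.0437. In WT the libraries of *Pdgfra* overlapped those of *Foxa2*, and those of *Foxa2* overlapped *Sox17*, so that end of the order was not settled. The ratio of *Sparc* to *Lama1* per length was 10.3 and 10.6 in WT and 53 and 48.2 in KO-labelled libraries, so the balance between the 2 matrix genes shifted well beyond the spread. The ratio of *Gata4* to *Gata6* was 5.31 and 5.96 in WT and 2.74 and 3.6 in KO-labelled libraries.

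**Figure D3:**
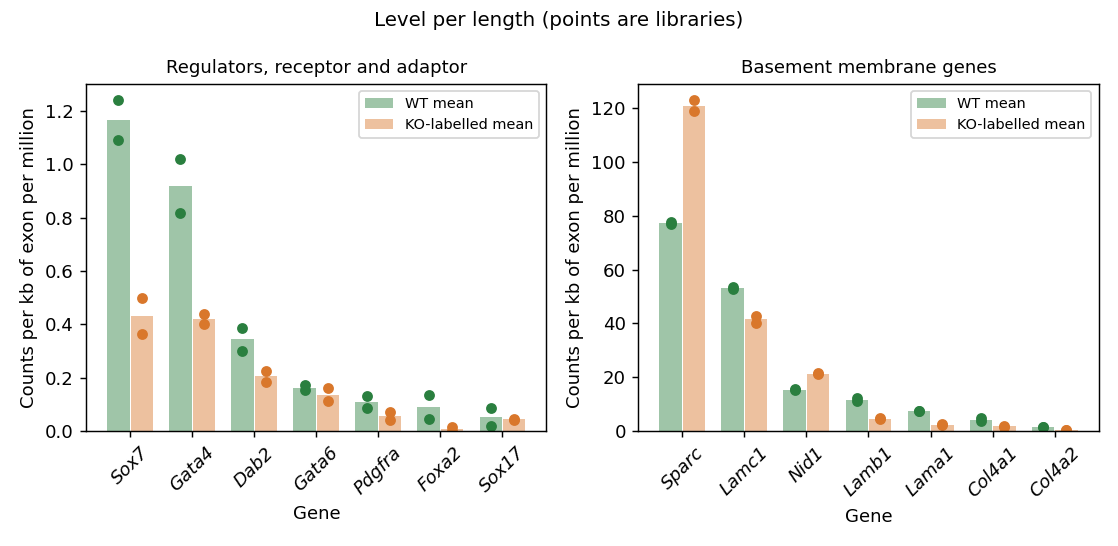
Counts per kilobase of exon per 1000000 counts, with bars at group means and points for libraries, for the regulators, receptor and adaptor (left) and for basement membrane genes (right). The axes differ: no gene on the left passes 1.24, the level of *Sox7* in WT replicate 1, while *Sparc* reaches 123 on the right.

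Among other basement membrane genes, more passed the test as lower than as higher. A list of 28 other laminin, collagen IV, nidogen, proteoglycan, collagen-modifying and receptor genes was described, of which 26 received an adjusted p. Of these, DESeq2 and edgeR each called 3 lower and 0 higher, where DESeq2 called 3.15% and 1.36% of all genes tested and edgeR 3.52% and 1.43%, with 17 of the 28 at an unadjusted p under 0.05, where 28% of all genes were. At an adjusted p under 0.05 alone 11 of the 26 were lower, against 15.8% of all genes tested, and 5 of the 26 were higher, near the 16.4% of all genes. The median log2 fold change was -0.31. With *Lama1* included, 7 of 11 laminin chain genes were lower at that threshold and 0 were higher. *Lamb1*, the beta chain that pairs with *Lama1*, had normalized counts of 5914 and 5275 in WT and of 2185 and 2262 in KO-labelled libraries. Its log2 fold change was -1.33 ± 0.09 (SE, adjusted p = 3.42e-49). The median on chromosome 12 was -0.32, and with chromosome medians removed *Lamb1* was at -1.01, close to the 2-fold line. The third chain of that trimer, *Lamc1*, differed less, at -0.36 ± 0.07 (SE, adjusted p = 2.71e-06). Per length, the ratio of *Lama1* to *Lamc1* was 0.139 and 0.139 in WT and 0.0579 and 0.0578 in KO-labelled libraries. That of *Lama1* to *Lamb1* was nearer between groups, at 0.608 and 0.659 against 0.504 and 0.526. *Lama5*, the alpha chain gene with the most counts, was lower by less than 2-fold, at -0.95 ± 0.09 on the log2 scale.

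The collagen IV genes *Col4a1* and *Col4a2*, which lie head to head and encode the chains of the common collagen IV network, were both called lower. *Col4a1* had normalized counts of 1645 and 1191 in WT and of 524 and 642 in KO-labelled libraries, a log2 fold change of -1.28 ± 0.16. *Col4a2* had 538 and 426 in WT and 158 and 164 in KO-labelled libraries, a log2 fold change of -1.58 ± 0.21. WT and KO-labelled libraries did not overlap for either gene. On the other side stood *Nid1*, a nidogen that links laminin to collagen IV, with normalized counts of 4516 and 4480 in WT and of 6140 and 6294 in KO-labelled libraries. Its log2 fold change was 0.47 ± 0.07 (SE, adjusted p = 7.02e-09). The laminin receptor gene *Dag1* was higher too, at 0.39 ± 0.07 (SE, adjusted p = 8.86e-07). The collagen chaperone gene *Serpinh1* was at 0.23 ± 0.08 (SE, adjusted p = 0.0101), but did not pass with chromosome medians removed (0.14, adjusted p = 0.183), nor without WT replicate 1 (adjusted p = 0.0876), WT replicate 2 (0.12) or KO-labelled replicate 2 (0.266).

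**Figure D4:**
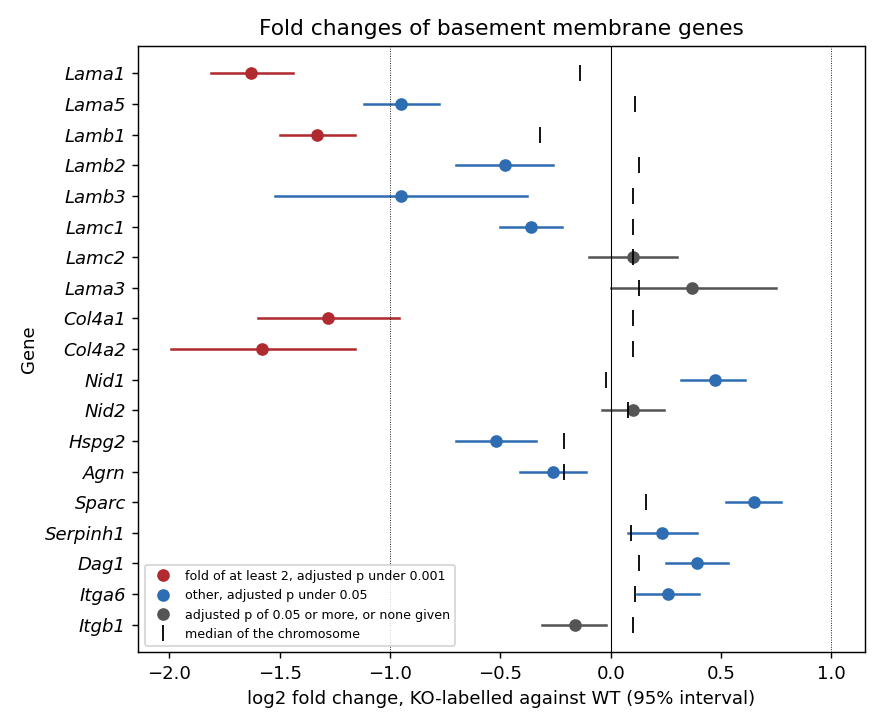
Log2 fold changes, KO-labelled against WT, of *Lama1*, *Sparc* and 17 other basement membrane genes, with 95% intervals, colours by the DESeq2 call and short bars at the median of each gene's chromosome. *Lama1*, *Lamb1*, *Col4a1* and *Col4a2* lie below the 2-fold line, while *Nid1*, *Sparc* and *Dag1* lie above 0.

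Genes of the parietal endoderm, where *Sox7*, *Lama1* and *Sparc* are usually strong, were mostly lower. Of 13 such genes, 6 were called lower and 1 called higher, against 3.15% and 1.36% of all genes tested, and the median log2 fold change was -1.08. At an adjusted p under 0.05 alone, 9 were lower and 1 higher, against 15.8% and 16.4%. Of the 6 defining parietal markers among them 2, *Thbd* and *Fst*, were called lower, 1 was called higher and 3 did not pass the test, so most of the lower genes were not defining markers. *Thbd*, the thrombomodulin gene and a parietal marker, had normalized counts of 99.4 and 118 in WT and of 15.7 and 37.6 in KO-labelled libraries (log2 fold change -2.02 ± 0.47). *Fst*, which encodes the activin-binding protein follistatin, had 329 and 323 in WT and 78.4 and 82.9 in KO-labelled libraries (-2.01 ± 0.25). *Krt19*, a keratin gene, changed by -1.92 ± 0.33. *Cited1*, another of the 6 called lower, changed by -1.81 ± 0.40, and its call was lost without any 1 library (-2.01 to -1.57). The call of *Thbd* was lost without WT replicate 1 (-2.13, adjusted p = 0.0171), WT replicate 2 (-1.89, adjusted p = 0.0589) or KO-labelled replicate 1 (-1.52, adjusted p = 0.0419). That of *Krt19* was lost without WT replicate 1 (adjusted p = 0.00891) or KO-labelled replicate 1 (adjusted p = 0.00118). The exception was *Pth1r*, the parathyroid hormone receptor gene of parietal endoderm, with 47.7 and 61 in WT and 134 and 144 in KO-labelled libraries (1.35 ± 0.36, adjusted p = 0.000976). That call was lost with TMM size factors (adjusted p = 0.00112) and without any 1 library, where the log2 fold change ranged from 1.19 to 1.55 and the adjusted p from 0.0179 to 0.0884. Several of the 13 genes, such as *Vim*, *Gpc3* and *Fst*, are used by many cell types. *Fst* was nevertheless on the list of defining markers, and the other two called on that list, *Thbd* and *Pth1r*, moved in opposite directions.

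Visceral endoderm genes gave no common direction. Of 20 listed, 11 received an adjusted p, 1 was called lower and 1 called higher, against 3.15% and 1.36% of all genes tested, and their median log2 fold change was 0.14. At an adjusted p under 0.05 alone 2 were lower and 3 higher, against 15.8% and 16.4% of all genes. The defining marker *Ttr* had 0 counts in every library and *Afp* at most 2. *Cubn*, the cubilin receptor gene, had normalized counts of 70.3 and 57.7 in WT and of 15.7 and 13.3 in KO-labelled libraries (-2.14 ± 0.56, adjusted p = 0.000794). *Hnf4a*, a nuclear receptor gene that acts in visceral endoderm, had 23.9 and 16.3 in WT and 111 and 113 in KO-labelled libraries (2.49 ± 0.46, adjusted p = 9.98e-07). The call of *Cubn* was lost without any 1 library (-2.27 to -1.99, adjusted p of 0.0267 to 0.103). That of *Hnf4a* was lost without WT replicate 2 (2.24, adjusted p = 0.00315) and without either KO-labelled library (2.50 and 2.48, adjusted p of 0.00654 and 0.00601). The highest gene of the list was *Apoe*, an apolipoprotein gene of many cell types, at -0.77 on the log2 scale.

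**Figure D5:**
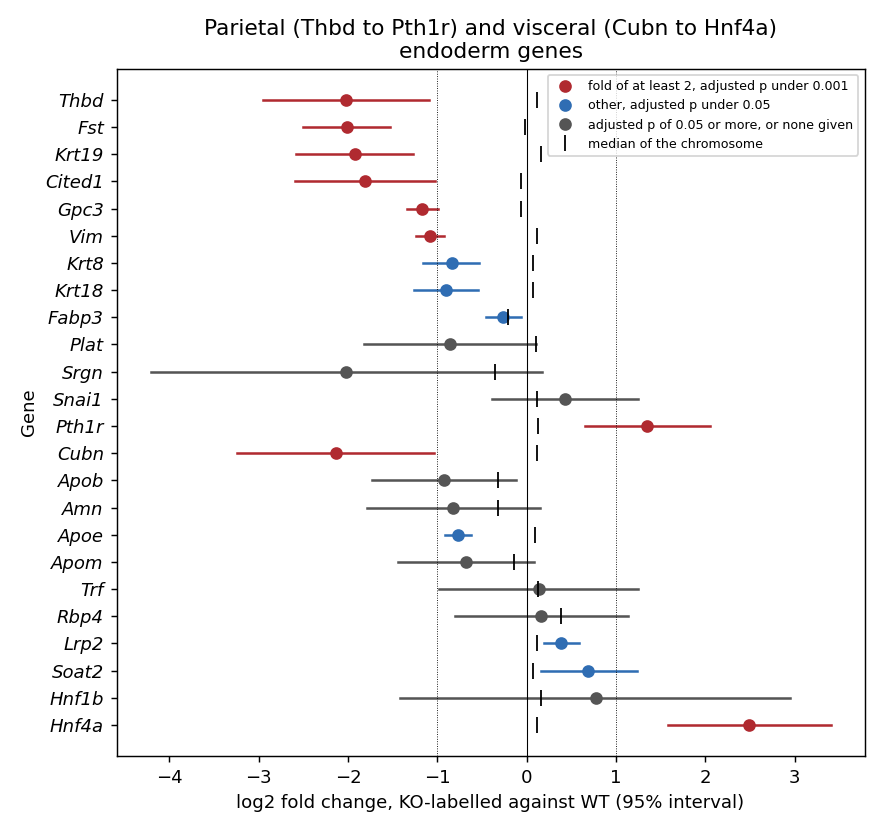
Log2 fold changes, KO-labelled against WT, of the 13 parietal endoderm genes and of the 11 visceral endoderm genes that received an adjusted p, with 95% intervals, colours by the DESeq2 call and short bars at chromosome medians. Parietal genes from *Thbd* to *Vim* lie below the 2-fold line and *Pth1r* above it, while visceral genes run from *Cubn* to *Hnf4a*.

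Of 6 anterior visceral endoderm genes 0 were called and 1, *Hhex*, was higher at an adjusted p under 0.05 (0.80 ± 0.25 on the log2 scale, adjusted p = 0.00509). The gene of that list with the most normalized counts, *Lefty1*, was at -0.15 ± 0.09 (SE, adjusted p = 0.239). *Hhex* did not pass with chromosome medians removed (0.42, adjusted p = 0.219), nor without WT replicate 2 (adjusted p = 0.178), KO-labelled replicate 1 (0.103) or KO-labelled replicate 2 (0.143). Of 8 definitive endoderm genes 0 were called, and *Eomes* was lower, with 659 and 637 normalized counts in WT and 326 and 330 in KO-labelled libraries. Over all genes tested 3.15% were called lower and 1.36% higher, and 15.8% and 16.4% passed 0.05 in each direction. At an unadjusted p under 0.05 these lists held 1 and 2 genes, *Hhex* in both, where 28% of all genes were under it, and edgeR called 0 of either list.

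Of the family relatives of the 9 genes, those that passed DESeq2's adjusted p of 0.05 were lower in KO-labelled libraries, while at an adjusted p under 0.05 with edgeR alone *Gata1* was higher and *Gata2* and *Foxa3* were lower. Of 11 GATA, SOX F, FOXA, Dab and Sparc relatives, DESeq2 and edgeR each called 2 lower and 0 higher, against 3.15% and 1.36% of all genes with DESeq2, 4 had an unadjusted p under 0.05, against 28% of all genes, and the median log2 fold change was -1.04. *Gata3*, a GATA gene of trophoblast and other tissues, had normalized counts of 260 and 258 in WT and of 45.3 and 32.9 in KO-labelled libraries (-2.73 ± 0.31, adjusted p = 4.59e-17). *Gata1*, the erythroid GATA gene, had 45.1 and 59.9 in WT and 91.4 and 94.7 in KO-labelled libraries (0.82 ± 0.40, adjusted p = 0.111 with DESeq2 and 0.022 with edgeR). *Smoc1*, a matrix gene related to *Sparc*, had 1564 and 1551 in WT and 512 and 467 in KO-labelled libraries. Its log2 fold change was -1.67 ± 0.12, opposite in sign to that of *Sparc*. *Gata2* and *Foxa3* were at adjusted p of 0.137 and 0.133 with DESeq2 and of 0.0389 and 0.0361 with edgeR, *Foxa1* passed with neither, and *Sox18*, which edgeR did not test, did not pass with DESeq2. Of the PDGF ligands, the *Pdgfra* ligand *Pdgfa* was at 0.13 ± 0.08 (SE, adjusted p = 0.234), and *Pdgfc*, another ligand, was called lower at -1.21 ± 0.17 (SE, adjusted p = 3.97e-11).

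The FGF pathway that feeds primitive endoderm fate showed changes in both directions. Of 12 genes, *Nanog* included, 2 were called lower and 1 higher, against 3.15% and 1.36% of all genes tested, with a median log2 fold change of -0.18. At an adjusted p under 0.05 alone 5 were lower and 2 higher, against 15.8% and 16.4%, and 10 of the 12 had an unadjusted p under 0.05, against 28%. *Fgfr2*, a receptor that acts in the primitive endoderm, had normalized counts of 1046 and 925 in WT and of 123 and 151 in KO-labelled libraries (-2.84 ± 0.18, adjusted p = 9.56e-57). It shares 4.03% of its exonic bases with *Ctbp2* on the same strand. *Dusp6*, an ERK phosphatase gene that the pathway induces, was at -1.36 ± 0.09 on the log2 scale (SE). With chromosome medians removed *Dusp6* was at -1.01. *Spry4*, a feedback inhibitor gene that the pathway also induces, had 5865 and 6299 in WT and 12098 and 12451 in KO-labelled libraries (1.01 ± 0.07, adjusted p = 8.39e-42). *Spry4* sat at the 2-fold line, and was under it with edgeR, with chromosome medians removed (0.88), without WT replicate 1 (0.97) and without KO-labelled replicate 2. The ligand *Fgf4* and the receptor *Fgfr1* were not called.

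Markers of other cells moved beside these results. Of 6 trophoblast markers 1, *Gata3*, was called lower, where 3.15% of all genes tested were, and 3 were lower at an adjusted p under 0.05, where 15.8% were. Their summed level per length was 27.2 and 28.4 in WT and 22.3 and 23.1 in KO-labelled libraries. Most of it was *Tcfap2c*, with means of 22.5 and 20.6, which did not pass the test (adjusted p = 0.25). *Elf5* had 4 and 4 raw counts in WT and 0 and 0 in KO-labelled libraries. Of 7 fibroblast feeder markers, *Thy1* was called higher at 1.59 ± 0.23 on the log2 scale, where 1.36% of all genes tested were called higher. The summed level of the list was 1.56 and 1.87 in WT and 4.52 and 5.18 in KO-labelled libraries, and *Thy1* alone made up 1.4 and 1.66 of it in WT and 4.31 and 4.93 in KO-labelled libraries. The collagen genes *Col1a1* (0.98 ± 0.56), *Col1a2* (-1.19 ± 1.08) and *Col3a1* (-0.25 ± 1.04) did not pass DESeq2's test, although *Col1a1* was higher at an adjusted p of 0.0399 with edgeR. The fibroblast matrix genes *Postn*, *Lum* and *Dcn* were at or near 0. The defining definitive endoderm markers summed to 5.9 and 6 in WT and 4.07 and 4.43 in KO-labelled libraries. *Eomes* alone was 3.26 and 3.21 of that in WT and 1.65 and 1.64 in KO-labelled libraries. The defining parietal markers summed to 4.77 and 5.21 in WT and to 2.89 and 3.44 in KO-labelled libraries. *Fst* alone was 2.52 and 2.52 of that in WT and 0.612 and 0.637 in KO-labelled libraries. The fall in each sum thus lay mostly in the gene named. The defining visceral markers summed to 1.77 and 1.9 in WT and to 1.75 and 1.76 in KO-labelled libraries. The part of such cells in the values of the 9 genes was not tested.

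Genes beside the 9 were described from the same fit, taking the nearest 2 on each side that averaged 50 or more normalized counts. Of 34 neighbours 2 were called lower and 0 higher, against 3.15% and 1.36% of all genes tested, and at an adjusted p under 0.05 alone 7 were lower and 7 higher, against 15.8% and 16.4%. Of the 16 beside *Sox7*, *Gata4*, *Lama1* and *Sparc* 0 were called, and 2 were lower and 3 higher at that p. Both lower ones were neighbours of *Lama1*. *Arhgap28*, 20.1 kb away, was at -0.45 ± 0.13 on the log2 scale (SE, adjusted p = 0.00319). *Epb4.1l3*, 1330 kb away, was at -0.95 ± 0.21 (SE, adjusted p = 4.38e-05). The higher ones near *Sox7* were *A930011O12Rik*, 637 kb away (0.74, adjusted p = 5.88e-06), and *Mtmr9*, 400 kb away (0.31, adjusted p = 0.000914). *Neil2*, 5.38 kb from *Gata4*, was higher too (0.62, adjusted p = 0.0322). With any 1 library left out *Neil2* (adjusted p of 0.0938 to 0.339) and *Arhgap28* (0.0662 to 0.124) did not pass, nor did *Neil2* and *Arhgap28* with chromosome medians removed (0.0812 and 0.0608), nor *Mtmr9* without WT replicate 1 (0.0606). The 2 called neighbours were *Thbd*, 358 kb from *Foxa2*, and *Kdr*, a receptor gene 735 kb from *Pdgfra*, with a log2 fold change of -1.68 ± 0.43. The calls depended on single libraries: that of *Kdr* was lost without any 1 (adjusted p of 0.0287 to 0.0866), and that of *Thbd* without any but KO-labelled replicate 2 (0.0171 to 0.0589). Between *Kdr* and *Pdgfra*, *Kit* was at -0.36 ± 0.08.

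The genes whose pattern over the 4 libraries was nearest to that of *Lama1*, by Euclidean distance of centred log2 values among 13306 genes, were *Grik3* at 0.0179, *Emp1* at 0.0464 and *Nespas* at 0.054. Those nearest to *Sox7* were *Tmem54* at 0.0829, *Cflar* at 0.105 and *Sepp1* at 0.11. None of these 6 is another of the 9 genes.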

How the data were processed

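RNA was measured in 4 libraries, 2 WT and 2 labelled *Spen* KO clone 2. The study prepared stranded libraries depleted of ribosomal RNA, without poly-A selection, from which reads were mapped to mm9 with STAR and assigned to GENCODE vM1 genes with featureCounts. The values the authors deposited are raw read counts per gene. Tool versions, whether counting used strand, and what was done with reads that match several places are not given in the sources used here. Genes with copies or overlapping neighbours are therefore uncertain. At most 3.81% of the exonic sequence of any of the 9 genes occurred more than once in the mm9 genome, counted in words of 31 bases on either strand. Of other listed genes, *Fabp3*, *Krt8* and most mESC markers had larger repeated shares, from 21.4% for *Pou5f1* to 78.6% for *Dppa5a*.

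All 37310 genes, 11918 of them with no count, entered DESeq2 1.42.0 in R 4.3.3 (Wald test, group alone, default size factors of 0.7543 to 1.278 and independent filtering), with p-values adjusted by Benjamini-Hochberg. A log2 fold change above 0 means a higher value in KO-labelled libraries. The fold minimum of 2 and the adjusted p of 0.001 are the study's. edgeR 4.0.16, TMM and upper-quartile size factors, removal of chromosome medians, a low-count filter (10 counts in 2 libraries), independent filtering off, a replicate block, leaving out each library and other thresholds were alternatives. The scripts were tested on simulated data. Intervals of count ratios cover counting error only, since reads are not independent molecules. Groups came from the sample labels. Same-numbered libraries did not deviate together (r = -0.0177 across 13306 genes), so the numbers do not pair them.

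The 9 genes and the lists were chosen with earlier results of these data known, and the lists were written from general knowledge. The naming rule took all 9 genes, up to 3 called genes per direction of each list (mean normalized count of at least 10) or else its highest gene, defining markers, called neighbours, and the 3 nearest patterns of each called member. Not every defining marker is named in the text. Genes named outside the rule were chosen after their values were seen. Protein sequences were not used here.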

Additional observations from a re-analysis of the deposited data

How the results depend on the processing

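The direction of *Lama1*, *Sparc*, *Gata4*, *Sox7*, *Dab2*, *Pdgfra*, *Gata6* and *Foxa2* was kept under every alternative in which the gene was tested. *Foxa2* and *Sox17* had too few counts to be tested with the low-count filter or with edgeR. *Sox17* turned, to 0.07 on the log2 scale with the replicate number as a block, and ranged from -0.98 to 1.32 when 1 library was left out. The low depth of *Sox17*, *Foxa2*, *Gata6* and *Pdgfra* limits what can be said of them. Where leaving out a library leaves 1 in a group, it is assumed to vary like the other group. *Gata4* passed the call at -1.22 with chromosome medians removed, -1.15 with the low-count filter and -1.15 with edgeR. *Sox7* lost it at -1.46 with the block (adjusted p = 0.00141) and ranged from -1.67 to -1.24 with 1 library left out. Members called lower fell from 2 to 1 with the block and to 1 (1 to 1) with any library left out. With no fold minimum, 1 member, *Sparc*, was called higher, as were 2 basement membrane genes, and 8 basement membrane genes were called lower. How many of all genes pass once the minimum is dropped was not counted. These numbers, and the visceral endoderm ones without it given next, therefore cannot be set against a share of all genes. Visceral endoderm genes called lower went from 1 to 0 with independent filtering off and with the block, 0 to 0 with a library left out, and 2 with no fold minimum. Those called higher were 0 to 1 with a library left out and 2 with no fold minimum. Parietal endoderm genes called lower numbered 3 to 6 with a library left out. The single one called higher, *Pth1r*, became 0 with TMM size factors, chromosome medians removed, independent filtering off, the block and every library left out (0 to 0). Correlating the deviations of same-numbered libraries gave -0.0177, so they share only a number, and the block changed no call of a member but that of *Sox7*. Of the parietal endoderm genes called lower, *Thbd* (DESeq2 adjusted p = 0.0011) and *Cited1* (0.00192) lost their calls with the block. Among other genes named, *Nanog* ranged from -0.17 to 0.06 and *Sox18* from -1.49 to 0.02 with 1 library left out, neither called. *Lama5* and *Eomes* were called lower with chromosome medians removed (-1.06 and -1.12) and without WT replicate 2 (*Lama5* at -1.07, *Eomes* at the 2-fold line).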
